A study of Mus musculus with 2 samples.

Results

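Neutrophils were 320 of the 16123 cells that passed the quality filters (at least 500 detected genes and at most 10% mitochondrial UMIs) and 320 of all 18823 barcodes in the 2 libraries, 51 in the control library and 269 in the Dnmt1iECKO library. A cell was taken as a neutrophil when S100a8 and S100a9 summed to at least 20 UMIs (unique molecular identifiers, each counting 1 captured transcript), at least 2 of Csf3r, Cxcr2, Retnlg, Mmp9 and Il1b had a UMI, Cd3e, Cd79a and Cdh5 had none, and C1qa, C1qb and C1qc summed to at most 2. The cells were thus chosen by the levels of these 13 genes, whose values are given as a description and support nothing.

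Single-cell 3′ RNA-seq was done on cells sorted from YUMMER1.7 tumors, a mouse melanoma line, in 1 control library and 1 Dnmt1iECKO library, each from the pooled tumors of 3 female mice aged 8 to 10 weeks. Dnmt1iECKO mice were labelled Cdh5CreERT2;Dnmt1fl/fl;ZsGreenlsl/lsl, in which tamoxifen activates Cre in cells with an active Cdh5 promoter, the endothelium, so neutrophils were not the cells targeted for deletion of the DNA methyltransferase gene. Control mice were labelled C57BL/6, whereas the study's methods give them the Cre driver and the ZsGreen reporter. The labels place the tumors under the skin and the paper places them in the lung after tail vein injection, and 7 markers of alveolar epithelium summed to 8149 CPM in the other control cells and 4394 CPM in the other Dnmt1iECKO cells. The sort kept live CD31+CD45- cells, which leaves leukocytes outside the intended gate, and the share of any leukocyte depends on how many passed it. With 1 library per group there is no replicate: no test was made, intervals are exact 95% intervals and the limit given for a count of 0 is that of 3 counts, both for counting error only, and a difference between conditions cannot be told apart from one between these pools, sorts and libraries.

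Neutrophils are short-lived granulocytes made in the bone marrow under G-CSF, which acts through the receptor Csf3r. They load their granules in sequence as they mature: azurophil granules with Mpo and Elane come first, specific granules with Ltf, Camp, Ngp and Lcn2 follow, and gelatinase with Mmp9 comes last, after which the granule genes are largely switched off and Cxcr2 guides the cells out of the marrow. In tissue they read chemokines, cytokines and interferons, and they hold large amounts of the calcium-binding proteins S100a8 and S100a9.

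The control library held 9301 cells and 123830489 UMIs and the Dnmt1iECKO library 9522 cells and 141433493 UMIs. Neutrophils were shallow beside the other cells, with a median of 4795 UMIs per control cell (2257 to 22596) and 5107 per Dnmt1iECKO cell (1052 to 34896), against medians of 10463 and 10965 in all other cells. Their summed depth was 283791 and 1561341 UMIs, so that 1 UMI was worth 3.52 CPM (UMIs scaled to a common total per library over these cells) in the control and 0.64 CPM in the Dnmt1iECKO neutrophils. The libraries shared 29 barcodes, and no neutrophil barcode occurred in both as a neutrophil.

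Neutrophil markers that the rule did not use were high in these cells, and some cells also carried monocyte and macrophage markers. Of 16 further neutrophil genes, 15 had a UMI in the control and 16 in the Dnmt1iECKO neutrophils, every neutrophil carried at least 10 UMIs of them, and their summed level was 28715 and 32651 CPM against 814 and 1433 CPM in all other cells. The 5 mast cell and basophil markers, among them Cpa3 and Mcpt8, were at 0 in both libraries. The 5 eosinophil markers summed to 21.1 and 13.45 CPM in neutrophils against 5.79 and 10.2 CPM in all other cells. Of these, Epx, Prg2 and Il5ra were at 0 in the neutrophils of both libraries, and no neutrophil held over 3 UMIs of the list. NK cell markers gave 0 UMIs in control neutrophils and UMIs of 1 of the 6 genes in 3 Dnmt1iECKO cells. Monocyte markers were present in both, at 1431 and 871 CPM in neutrophils against 1000 and 1365 CPM in all other cells, with at least 10 UMIs of them in 7 control and 29 Dnmt1iECKO neutrophils. Macrophage markers were at 793 and 340 CPM against 665 and 1497 CPM in all other cells, with at least 10 UMIs in 5 control and 7 Dnmt1iECKO neutrophils. In the control library the monocyte and macrophage sums were thus higher in neutrophils than in all other cells. The 5 control neutrophils over 10000 UMIs held 1 to 14 UMIs of Csf1r and 0 to 3 of Cxcr2. Endothelial markers were at 187 and 46.8 CPM against 4442 and 1707 CPM in all other cells. Alveolar epithelial markers were at 159 and 87.7 CPM against 8149 and 4394 CPM. The eosinophil, monocyte, macrophage, endothelial and alveolar sums were higher in the control neutrophils than in the Dnmt1iECKO neutrophils. T cell markers were at 14.1 and 25.0 CPM and B cell markers at 109 and 176 CPM. Among marker genes of other cell types with at least 100 UMIs, the immunoglobulin light chain gene Igkc was over 2-fold higher in Dnmt1iECKO neutrophils (19 and 223 UMIs, 1.09 as the log2 ratio), and the monocyte receptor Treml4 (53 and 131 UMIs, -1.15) and Mitf, the melanocyte factor (30 and 82 UMIs, -1.01), were over 2-fold lower, besides Ly6c2 and Apoe, which are described with the most extreme ratios. The part of these cell types in the ratios was not tested, and values with cells that carry their UMIs left out stand beside the results.

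Near the threshold, no control cell and 6 Dnmt1iECKO cells met all other criteria with an S100a8 and S100a9 sum of 10 to 19, and 3 control and 6 Dnmt1iECKO cells had a sum of 20 to 29. Among the 6 cells just outside, 3 had 35261 to 57413 UMIs and at most 2 UMIs of Retnlg and of Cxcr2, and the other 3 had 1419 to 5292 UMIs with Csf3r and Il1b in each. Of the 81 control and 311 Dnmt1iECKO cells with the S100 sum and second markers, 24 and 23 had a Cdh5 UMI and 7 and 3 had over 2 C1q UMIs, and with the Cd3e and Cd79a criteria 37.0% and 13.5% were left out. Within the neutrophils, all 5 of the second markers were seen in 29 of 51 control and 200 of 269 Dnmt1iECKO cells.

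Neutrophils took a larger share of the Dnmt1iECKO library. They were 0.636% of the control cells past the quality filters (0.474 to 0.835) and 3.32% of the Dnmt1iECKO cells (2.94 to 3.73), a 5.22-fold difference (3.86 to 7.19). With the cells that the Cd3e, Cd79a, Cdh5 and C1q criteria removed, the shares were 1.01% and 3.84%, 3.8-fold apart (2.97 to 4.92). Other myeloid cells differed in the same direction: cells with at least 3 monocyte genes were 1.75% and 6.52%, 3.73-fold apart (3.09 to 4.53), and C1q-positive macrophages were 1.78% and 4.83%, 2.71-fold apart (2.23 to 3.30). Cells with a UMI of Ptprc, the gene of CD45, numbered 1466 and 4729. Among those, neutrophils were 3.48% of the control cells (2.60 to 4.55) and 5.65% of the Dnmt1iECKO cells (5.01 to 6.34), 1.62-fold apart (1.20 to 2.24). Among neutrophils and monocytes together, neutrophils were 26.7% and 33.8%, and the interval of that 1.26-fold difference (0.934 to 1.74) held 1.

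**Figure D1:**
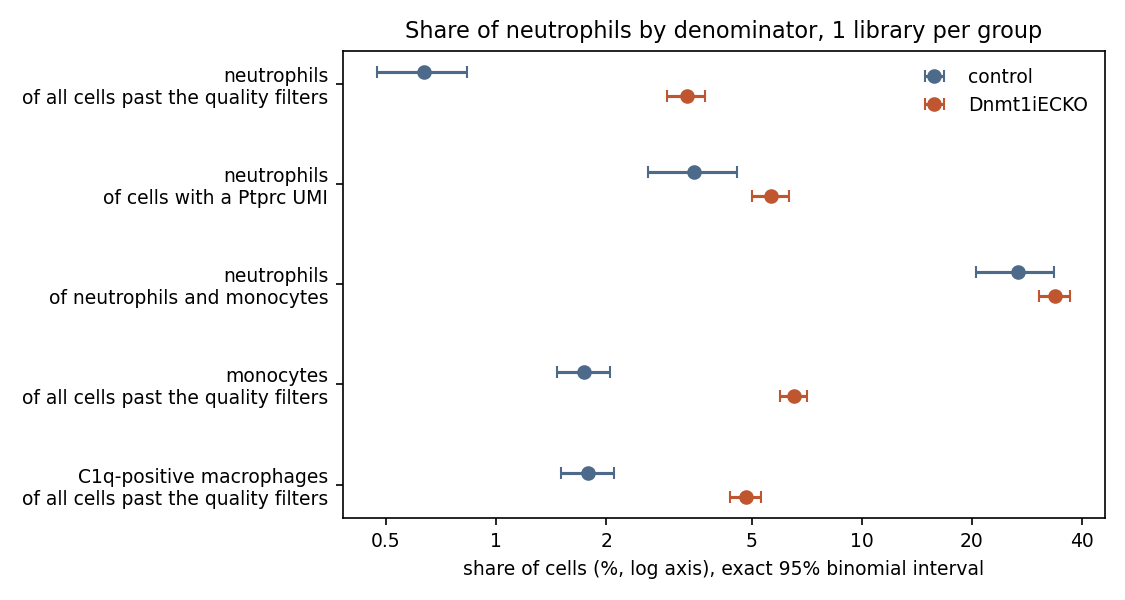
Shares of cells in percent (log axis) with exact 95% binomial intervals, for the control (blue) and Dnmt1iECKO (orange) library, each row naming the cells and their denominator. The neutrophil intervals lie far apart over all cells, are closer among cells with a Ptprc UMI and overlap among neutrophils and monocytes.

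RNA of the marker genes was also found outside the neutrophils. S100a8 or S100a9 UMIs were seen in 2.86% of the other control cells and 14.1% of the other Dnmt1iECKO cells, and in 15.0% and 26.3% of the monocytes, whose median sum was 0 in both libraries. The lowest sum accepted here was 20, and the monocytes were taken with a sum under 20, so their low sums are partly set by that choice.

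Dnmt1, the gene deleted in the endothelium (chromosome 9, 20907209 to 20959888, GRCm38), was close to undetected in neutrophils. It had 0 UMIs in the control neutrophils, which allows up to 10.6 CPM, and 7 UMIs or 4.48 CPM (1.80 to 9.24) in the Dnmt1iECKO neutrophils, too few to compare. In cells with a Cdh5 UMI the control library gave 50.8 CPM and the Dnmt1iECKO library 38.7 CPM.

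Across genes, 2447 had at least 100 UMIs over the neutrophils of both libraries and are the genes compared below. Most UMIs came from the Dnmt1iECKO neutrophils, so a gene could reach this minimum through that library alone. Their median log2 ratio of CPM, Dnmt1iECKO over control, was -0.040, and 46.1% of them were higher in Dnmt1iECKO. At least 2-fold higher were 61 genes (2.49%) and at least 2-fold lower were 93 genes (3.8%). A gene is called different here only in the sense of this 2-fold limit. The counts moved with a few deep cells: 5 control and 16 Dnmt1iECKO neutrophils had over 10000 UMIs, and without them 40 genes were at least 2-fold higher and 20 at least 2-fold lower of 2013 with the minimum count. Of the 61 and 93 genes, 35 and 43 kept the minimum count without these cells, and 20 and 14 of those stayed at least 2-fold different.

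**Figure D2:**
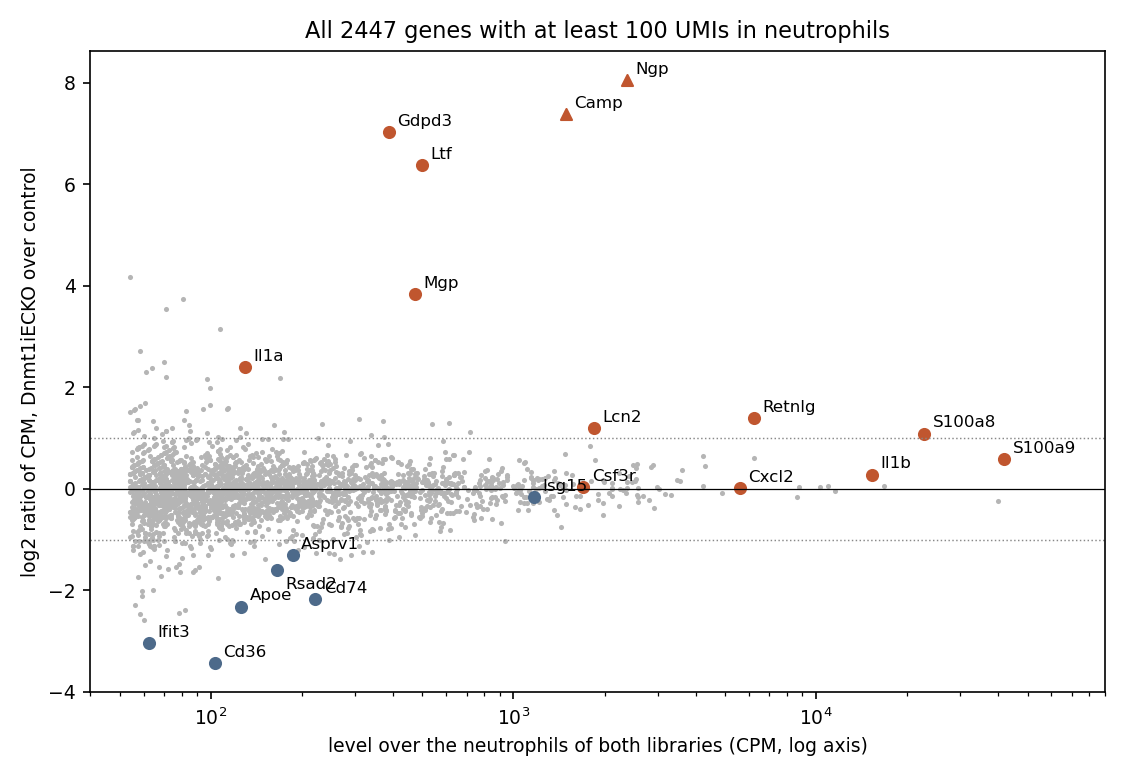
Log2 ratio of CPM, Dnmt1iECKO over control, against the level over the neutrophils of both libraries (CPM, log axis) for all 2447 genes with at least 100 UMIs. Triangles are lower bounds for genes with no control UMI, dotted lines mark 2-fold, and most genes lie between them while Ngp, Camp, Gdpd3 and Ltf stand above 6.

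The genes of the rule are described first. S100a9 and S100a8 together form calprotectin. S100a9 was at 29363 CPM in control and 44248 CPM in Dnmt1iECKO neutrophils (log2 ratio 0.59), and S100a8 at 11688 and 24806 CPM (1.09). Retnlg, a secreted resistin-like protein of mature neutrophils, was at 2639 and 6914 CPM (1.39), and was seen in 56.9% and 75.5% of cells after each was thinned to 1000 UMIs. The gelatinase gene Mmp9 was at 423 and 671 CPM (0.67) and Il1b, which encodes the cytokine IL-1 beta, at 12978 and 15729 CPM (0.28). The receptor genes Csf3r (0.03) and Cxcr2 (0.15) differed by less than their counting intervals. Per cell, the thinned sum of S100a8 and S100a9 had a median of 45 UMIs in control cells (1 to 111) and 59 in Dnmt1iECKO cells (4 to 253). The excluded genes Cd3e, Cd79a and Cdh5 are at 0 by the rule.

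Against all other cells of the same library, the genes most particular to neutrophils were, besides S100a8, S100a9, Retnlg and Cxcr2, Stfa2l1, Cstdc4 and Cstdc5 (stefins, inhibitors of cysteine proteases), Mrgpra2b (a receptor of the Mas-related family), Nlrp12 (an intracellular sensor) and Il1f9 (IL-36 gamma). S100a9 stood at 36.4 and 64.4 CPM in the other cells and Cxcr2 at 1.46 and 2.36 CPM. Nlrp12 was at 116 CPM in control neutrophils and 143 CPM in Dnmt1iECKO neutrophils, against 0.296 and 0.384 CPM in the other cells. These folds describe the choice of cells as much as the cells, and the stefin genes are near-identical copies whose reads may be shared.

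Specific granule genes had the highest median ratio of the lists with more than 1 gene compared, and most of the UMIs behind it lay in 8 cells. Of 11 listed genes 8 had the minimum count, all 8 were higher in Dnmt1iECKO and 7 were at least 2-fold higher (2.49% of all genes), with a median log2 ratio of 1.89 against -0.040 for all genes. Ngp, Camp, Ltf, Cd177 and Chil3 had at most 12 control UMIs each and reached the minimum only through Dnmt1iECKO. A high ratio was thus built into their entry, and the count and median describe the list only. Without those 8 cells only 3 of the genes kept the minimum count, and their median was 0.14. Ngp (neutrophilic granule protein) had 0 UMIs in control and 4395 in Dnmt1iECKO neutrophils, and Camp, the precursor of the antimicrobial peptide CRAMP, had 0 and 2757. Set against 3 UMIs over all control neutrophils, Ngp was at least 266-fold higher, and the lower end of its exact interval was a log2 ratio of 7.76. Ltf, which encodes the iron-binding protein lactoferrin, had 2 and 918 UMIs, a log2 ratio of 6.38 (4.53 to 9.43). Nearly all of these UMIs lay in a few cells, described next.

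In Dnmt1iECKO, 8 of 269 neutrophils (2.97%, 1.29 to 5.78) held at least 10 UMIs of Camp, Ngp and Ltf together, 33 held 1 to 9, and 228 held none. The 8 cells carried 99.3% of these UMIs. In the control, 0 of 51 neutrophils held 10 UMIs, which allows a share of up to 5.88% (exact upper end 6.98%), and 1 cell held 2 UMIs. That limit lies above the 2.97% seen in Dnmt1iECKO, so a difference in the share of such cells was not detectable at this number of control cells. The 8 cells were deep, with a median of 15998 UMIs against 5073 in the other 261. The richest held 860 UMIs of Camp, 1255 of Ngp, 340 of Ltf and 492 of Lcn2, while the poorest held 3, 62, 2 and 46. Retnlg had 37 and 1 UMIs in the 2 cells with the most Camp, 223 and 294 in 2 others, and 398 to 662 in the remaining 4. Mpo and Elane, genes of the earlier azurophil granules, had 0 UMIs in all 8, and the proliferation gene Mki67 was seen in 1 of them with 14 UMIs. That cell was the deepest, with 34896 UMIs, and also held 68 UMIs of the monocyte genes Csf1r, Ccr2 and Ly6c2, 54 of Cd74 and 0 of Cxcr2.

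**Figure D3:**
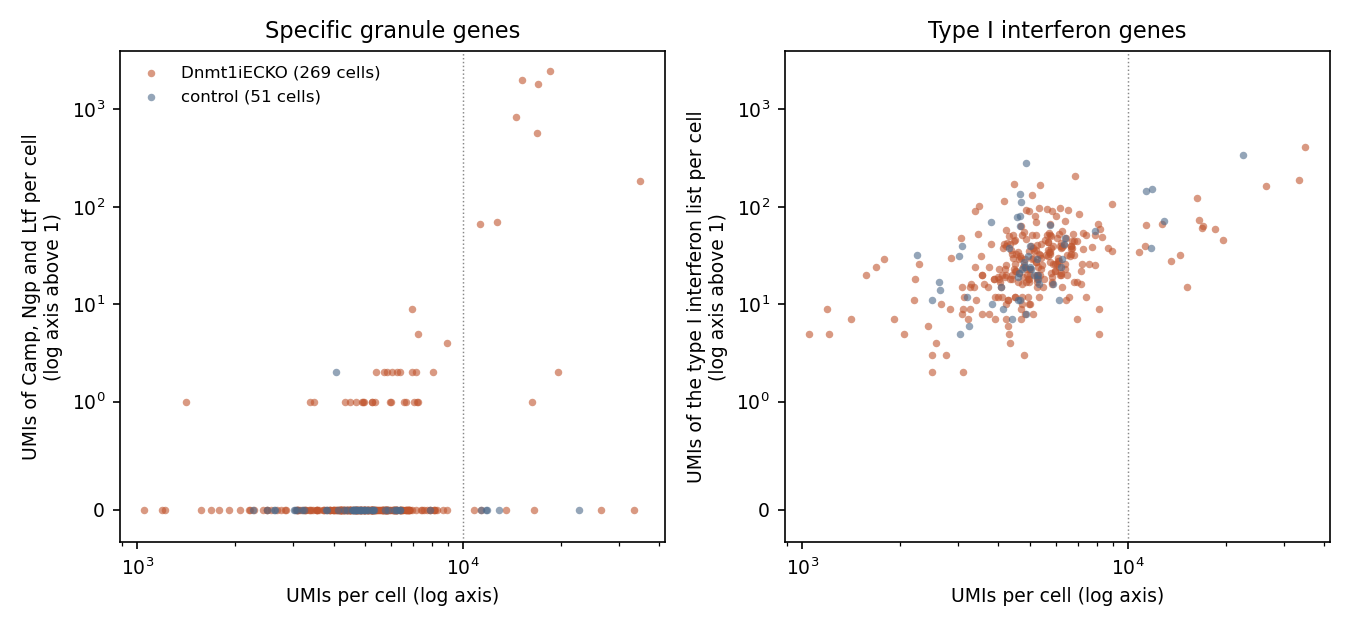
UMIs of Camp, Ngp and Ltf (left) and of the type I interferon list (right) per cell against the UMIs of the cell (log axes) for 51 control (blue) and 269 Dnmt1iECKO (orange) neutrophils, with a dotted line at 10000 UMIs. On the left, 8 Dnmt1iECKO cells to the right of the line stand above 60 UMIs and the other cells are at 0 to 9, while on the right both libraries form 1 cloud.

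The promoters of these 3 genes are shown because UMIs of all 3 genes were found together in these 8 cells. Each run is 300 bases from RefSeq on GRCm38.p6, from 250 bases before the transcription start to 50 after it, on the strand of the gene. Capitals mark TTGCNNAA on either strand, a motif like those bound by the C/EBP factors of granulocytes, which 10.8% of the 32851 promoters of this length hold. Camp is chr9:109849407-109849706 on the minus strand, Ngp chr9:110419558-110419857 and Ltf chr9:111019042-111019341, both on the plus strand.
Camp: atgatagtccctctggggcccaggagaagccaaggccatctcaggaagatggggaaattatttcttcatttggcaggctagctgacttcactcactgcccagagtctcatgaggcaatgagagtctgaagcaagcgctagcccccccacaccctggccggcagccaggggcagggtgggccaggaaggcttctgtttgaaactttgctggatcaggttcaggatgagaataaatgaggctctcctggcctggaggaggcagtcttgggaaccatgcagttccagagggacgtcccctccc
Ngp: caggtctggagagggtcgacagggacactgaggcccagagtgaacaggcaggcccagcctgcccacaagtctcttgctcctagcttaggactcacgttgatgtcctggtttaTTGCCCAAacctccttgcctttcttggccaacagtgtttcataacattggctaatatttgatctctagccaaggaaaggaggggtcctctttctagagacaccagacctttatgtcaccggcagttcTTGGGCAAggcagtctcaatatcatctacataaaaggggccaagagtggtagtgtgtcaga
Ltf: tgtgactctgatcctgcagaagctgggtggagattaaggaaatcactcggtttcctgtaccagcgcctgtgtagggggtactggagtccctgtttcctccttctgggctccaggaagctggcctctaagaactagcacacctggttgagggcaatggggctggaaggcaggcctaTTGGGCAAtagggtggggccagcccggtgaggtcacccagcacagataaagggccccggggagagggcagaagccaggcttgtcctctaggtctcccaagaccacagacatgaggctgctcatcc
Ngp held 2 matches, Ltf 1 and Camp 0. All 3 genes lie on chromosome 9 between 109847379 and 111042767. A match describes these letters only.

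In the other 261 Dnmt1iECKO cells the granule genes parted. Lcn2, an iron-sequestering lipocalin, was at 888 CPM in control neutrophils and 847 CPM in these cells, a log2 ratio of -0.07 (-0.26 to 0.13), where it had been 1.19 over all cells. Mmp8, the neutrophil collagenase, stayed higher at 243 and 451 CPM (0.89, 0.53 to 1.27). Retnlg (1.09), S100a8 (0.87) and S100a9 (0.45) also stayed higher, and Wfdc21, a small secreted WAP-domain protein, was at 275 and 512 CPM. Ngp had 48 UMIs and Camp 2 in these cells. Chil3, a chitinase-like protein, went from 1.58 over all cells to -2.32 on 12 UMIs in each library. Hp, which encodes haptoglobin, differed little, at 1839 and 2022 CPM over all cells (0.14). Cd177, a surface receptor of neutrophils (5 and 126 UMIs), and Ly6g, which encodes the antigen of the Gr-1 and 1A8 antibodies (8 and 175 UMIs), were 2.20 and 1.99 higher on the log2 scale over all cells, with 87 and 85 of the Dnmt1iECKO UMIs in the 8 cells.

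Azurophil granule genes were nearly silent in both libraries. Mpo had 0 and 1 UMIs, Prtn3 0 and 2, and Elane and Ctsg none. Ctsc, the protease that activates the granule serine proteases, was the only list gene with the minimum count, at 197 and 80.1 CPM (-1.30, -1.77 to -0.82), with 25.0% of its control UMIs in 1 cell.

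The late-stage cytosolic and secretory genes were close between libraries, with 9 of 12 higher, against 46.1% of all genes, and a median of 0.22. Of the 12, 2 were at least 2-fold higher and 1 at least 2-fold lower, against 2.49% and 3.8% of all genes. Srgn, the proteoglycan core of granules, was at 10046 and 10348 CPM (0.04), and G0s2, an inhibitor of lipolysis, at 4299 and 6577 CPM (0.61, 0.53 to 0.70). Ifitm2 was at 2262 and 2595 CPM and the antiprotease Slpi at 2312 and 2564 CPM. At least 2-fold higher were Wfdc21 (1.29) and the interferon-inducible Ifitm6 (1.02), of which 321 of 1049 and 382 of 634 Dnmt1iECKO UMIs lay in the 8 granule-rich cells. In the other 261 cells Ifitm6 was at -0.18 (-0.60 to 0.26) and Wfdc21 at 0.90. Asprv1, a retroviral-like aspartic protease, was lower in Dnmt1iECKO, at 377 and 152 CPM (-1.31, -1.65 to -0.97), and stayed so at -1.56 without cells over 10000 UMIs.

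Receptor genes were at close levels in the libraries. Of 27 tested 17 were higher, 10 lower and none 2-fold different, with a median of 0.11. Of all genes compared, 46.1% were higher, 2.49% at least 2-fold higher and 3.8% at least 2-fold lower, so few genes past 2-fold are due in a list of this size. Il1r2, the decoy receptor of IL-1, was at 3129 and 3522 CPM (0.17), the lipopolysaccharide co-receptor Cd14 at 2904 and 2992 CPM (0.04), and the C-type lectins Clec4d at 2467 and 2342 CPM (-0.07) and Clec4e at 1776 and 2009 CPM (0.18). Adhesion genes had a median of -0.29, with 4 of 11 higher and none 2-fold different. Their median was 0.006 by the mean of CPM over cells, -0.05 without cells over 10000 UMIs and 0.03 after thinning. Cd44, the hyaluronan receptor, was at 2135 and 1702 CPM (-0.33). The tetraspanin Cd9 was at 1114 and 1296 CPM (0.22), and Selplg, the ligand of P-selectin, at 613 and 615 CPM (0.00). The genes of the NADPH oxidase, which makes the oxidative burst, had a median of 0.007 over 7 genes, with Cyba at 1001 and 1006 CPM and Rac2 at 828 and 972 CPM.

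Chemokine and cytokine genes had a median of 0.26, with 9 of 14 higher and 2 at least 2-fold, where 46.1% of all genes were higher and 2.49% at least 2-fold higher. Cxcl2, which itself attracts neutrophils through Cxcr2, was the most abundant, at 5564 and 5614 CPM (0.01, -0.06 to 0.09). Thbs1, a matrix glycoprotein, was at 1882 and 2595 CPM (0.46), the histamine-forming enzyme Hdc at 2072 and 2462 CPM (0.25) and Ccl6 at 2019 and 1886 CPM (-0.10). Il1a (8 and 232 UMIs, 2.40) and Cxcl10 (4 and 109 UMIs, 2.31) were the 2 past 2-fold, with 28% and 38.5% of their Dnmt1iECKO UMIs in 1 cell each and 5.58% and 2.23% of thinned Dnmt1iECKO cells showing them. In monocytes the same genes were at -0.26 and -0.41. Among genes named for tumor-associated neutrophils, 5 of 9 were higher with a median of 0.02, Arg2 (arginase 2) was at 715 and 950 CPM (0.41), Cd84 at 391 and 551 CPM (0.49), Lgals3 at 638 and 489 CPM (-0.38) and Cd274, which encodes PD-L1, at 342 and 346 CPM (0.02). Spp1, osteopontin, was at 28.2 and 60.8 CPM (1.11, 0.07 to 2.36) on 8 and 95 UMIs.

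**Figure D4:**
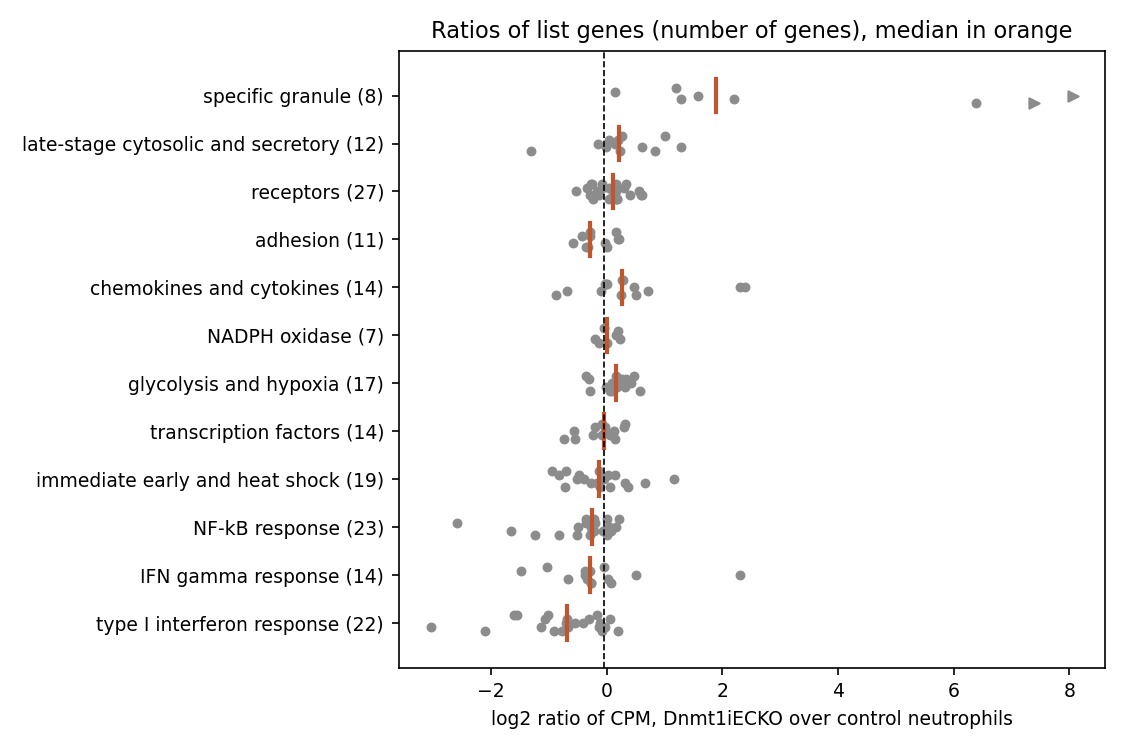
Log2 ratio of CPM, Dnmt1iECKO over control neutrophils, for the genes of 12 lists, with the number of genes with at least 100 UMIs in parentheses, the list median as an orange bar and the median of all 2447 genes as a dashed line. Arrowheads are lower bounds for genes with no control UMI; the specific granule list lies to the right, the type I interferon list to the left, and the other medians lie between -0.29 and 0.26.

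Interferon genes lay lower in Dnmt1iECKO neutrophils when UMIs were summed. Of 22 type I interferon response genes 2 were higher, 20 lower and 7 at least 2-fold lower (3.8% of all genes), with a median of -0.68 against -0.040 for all genes. The most abundant differed little: the ubiquitin-like modifier Isg15 was at 1290 and 1151 CPM (-0.16, -0.33 to 0.00) and the nucleotide hydrolase Samhd1 at 1068 and 1047 CPM (-0.03). Ifitm3, an antiviral membrane protein, was at 1314 and 986 CPM (-0.41) and Slfn4 at 694 and 430 CPM (-0.69). The 7 past 2-fold were Ifit3 (-3.04), Ifit1 (-2.11), Rsad2 (-1.61), Ifih1 (-1.55), Oas3 (-1.13), Irf7 (-1.07) and Slfn5 (-1.02), antiviral effectors and sensors and, for Irf7, the factor that amplifies the response. A single control cell held 59.4% of the Ifit3 UMIs and 39.6% of those of Ifit1 lay in 1 cell as well.

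As a median per cell, the summed interferon UMIs differed little. By the mean of CPM over cells, the median ratio of the list was -0.38, with 5 of 22 genes higher. After thinning, the 32 list genes in the files summed to a median of 6 UMIs per control cell (0 to 62) and 5 per Dnmt1iECKO cell (0 to 40). The control cell richest in these genes, with 22596 UMIs in all, held 340 of 2478 UMIs of the list, and without it the median of the list was -0.42. Isg15 was seen in 56.9% and 50.9% of thinned cells and Rsad2 in 11.8% and 7.81%, with overlapping intervals. In the 29 control and 141 Dnmt1iECKO neutrophils without a UMI of the monocyte genes Csf1r, Ccr2 and Ly6c2, 11 list genes kept the minimum count and their median was 0.04. In monocytes the median of the 22 list genes compared was 0.77 and in C1q-positive macrophages 0.20.

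IFN gamma response genes had a median of -0.28, with 4 of 14 higher, 1 of them at least 2-fold, and 2 at least 2-fold lower. Of all genes, 46.1% were higher, 2.49% at least 2-fold higher and 3.8% at least 2-fold lower. The class I genes H2-D1 (3020 and 2510 CPM, -0.27), B2m (2315 and 1917 CPM, -0.27) and H2-K1 (849 and 535 CPM, -0.67) were lower, the guanylate-binding genes Gbp2 (-1.49) and Gbp7 (-1.04) passed 2-fold, and Cd274 and Cxcl10 are given above. Without the cells with a monocyte gene UMI the median of the list was 0.23 over 8 genes. Among class II and costimulation genes Cd74, the invariant chain, was at 648 and 144 CPM (-2.17), Cd80 at 486 and 522 CPM (0.10) and Cd86 at 194 and 98.0 CPM (-0.98). Cd74 turned to 0.40 without cells over 10000 UMIs.

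NF-kB response genes had a median of -0.26, with 7 of 23 higher and 3 at least 2-fold lower. Of all genes compared, 46.1% were higher and 3.8% at least 2-fold lower. The inhibitor Nfkbia was at 3192 and 2727 CPM (-0.23), its relative Nfkbiz at 1723 and 1760 CPM (0.03), and Plaur, the urokinase receptor, at 1209 and 1399 CPM (0.21). Cd83, an activation marker (-2.59), and Bcl2a1d (-1.65) and Bcl2a1b (-1.25), anti-apoptotic relatives of Bcl2, were lower. Bcl2a1b was at 624 and 263 CPM, was seen in 27.5% and 15.6% of thinned cells, and was -1.15 without cells over 10000 UMIs, though its copies share sequence and reads may be split among them. Other survival genes were at close levels, with Mcl1 at 2248 and 2245 CPM (-0.002), Birc3 at 673 and 690 CPM and the pro-apoptotic Bcl2l11 at 472 and 443 CPM.

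Immediate early and heat shock genes had a median of -0.14, with 7 of 19 higher. Of all genes compared, 46.1% were higher, 2.49% at least 2-fold higher and 3.8% at least 2-fold lower. The antiproliferative gene Btg2 was at 2861 and 4500 CPM (0.65, 0.55 to 0.76), Junb at 2192 and 2406 CPM (0.13), Fos at 1850 and 2306 CPM (0.32) and the phosphatase gene Dusp1 at 1621 and 1648 CPM (0.02). Dnajb1, a heat shock co-chaperone, passed 2-fold on 8 and 98 UMIs (1.15). Glycolysis and hypoxia genes had a median of 0.17 with 13 of 17 higher and none past 2-fold. Gapdh was at 779 and 874 CPM, the glucose transporter Slc2a3 at 511 and 530 CPM, Pkm at 433 and 519 CPM and Hif1a at 310 and 384 CPM. Transcription factor genes had a median of -0.05, with Cebpb at 5138 and 4857 CPM (-0.08), Mxd1 at 2340 and 2297 CPM (-0.03) and Litaf at 1512 and 1485 CPM. The inflammasome sensor Nlrp3 was at 800 and 1148 CPM (0.52), Casp4 at 218 and 235 CPM, Il18 at 38.8 and 63.4 CPM and Gsdmd, the pore-forming gasdermin, at 67.0 and 60.8 CPM. Of the cell cycle list, the chromatin protein gene Hmgb2 alone had the minimum count, at 744 and 1099 CPM (0.56). Tet2, a methylcytosine dioxygenase, alone did so among the DNA methylation genes, at 152 and 136 CPM (-0.16).

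Gdpd3, a lysophospholipase D on chromosome 7 (126766334 to 126775649, GRCm38), was the gene with the largest ratio among those with a UMI in both libraries. It had 1 UMI in control neutrophils and 715 in Dnmt1iECKO neutrophils, or 3.52 and 458 CPM, a log2 ratio of 7.02 (4.54 to 12.3). After thinning it was seen in 0 of 51 control cells, which allows up to 5.88% (exact upper end 6.98%), and in 31.6% of Dnmt1iECKO cells (26.1 to 37.5). No cell held more than 1.96% of its Dnmt1iECKO UMIs, and the log2 ratio was 7.09 in the 261 cells outside the granule-rich 8. Other cell classes also differed: the log2 ratio was 4.89 in monocytes, 3.91 in C1q-positive macrophages, 4.51 in cells with a Cdh5 UMI, 6.55 in cells with a Cd3e UMI and 4.91 in cells with a Cd79a UMI. The deletion and any other difference between the pooled mice cannot be told apart as sources of a ratio found in all 6 classes. In Dnmt1iECKO, thinned cells with a Gdpd3 UMI were 10.8% of monocytes, 12% of macrophages and 14.6% of Cdh5 cells. At this equal depth the share in neutrophils lay above the intervals of all 5 other classes. At full depth 51.3% of Dnmt1iECKO neutrophils had a Gdpd3 UMI, below macrophages (78.3%), monocytes (61.2%) and Cdh5 cells (59.8%). Cells with a Cd79a UMI (49.0%) or a Cd3e UMI (43.7%) lay lower. Neutrophils were the shallowest of these classes, with a median of 5107 UMIs.

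**Figure D5:**
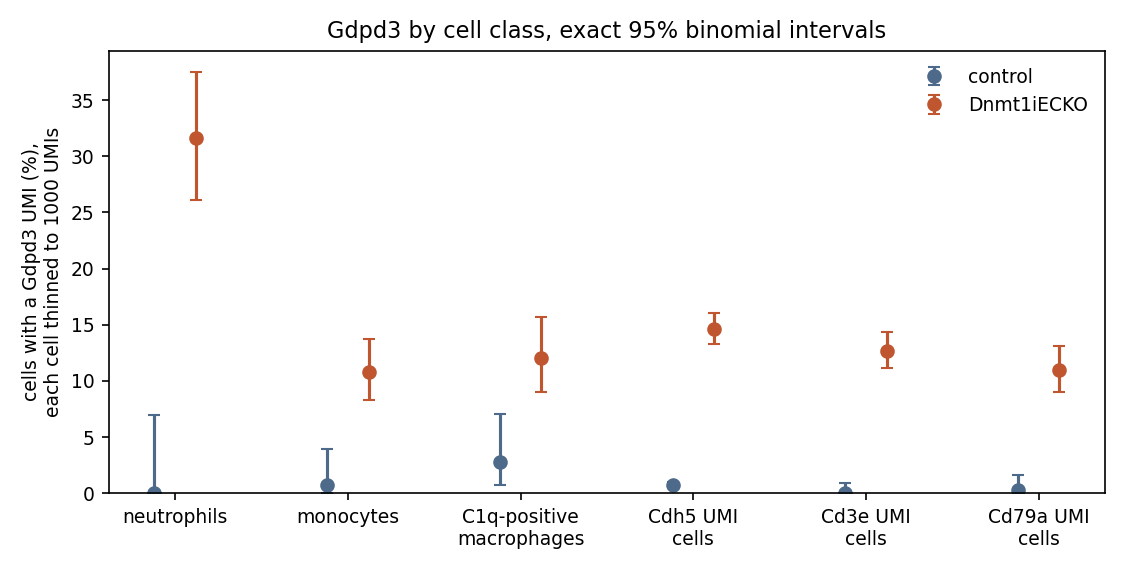
Cells with a Gdpd3 UMI in percent after each cell was thinned to 1000 UMIs, by cell class, for the control (blue) and Dnmt1iECKO (orange) library, with exact 95% binomial intervals. Every Dnmt1iECKO class lies above its control, and neutrophils stand highest at 31.6%.

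The other genes with the highest ratios had few UMIs or few cells. Mgp, a matrix protein of vessels and fibroblasts, had 11 and 863 UMIs (3.83), of which 95.5% of the Dnmt1iECKO UMIs lay in 1 cell with 33360 UMIs that also held Col1a1. The phosphodiesterase Pde4d (2 and 129 UMIs, 3.55, 1.67 to 6.61), the monocyte antigen Ly6c2 (4 and 194 UMIs, 3.14) and the transcription cofactor Dach1 (12 and 301 UMIs, 2.19) had 30.2%, 20.1% and 15.6% of their Dnmt1iECKO UMIs in 1 cell. Lamtor4, a subunit of the lysosomal Ragulator complex, was spread more evenly, with 7 and 172 UMIs (2.16, 1.09 to 3.50) and no more than 5.23% in 1 cell. Ly6c2 was also higher in Dnmt1iECKO monocytes (0.80).

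The genes with the lowest ratios were mostly ones that macrophages and monocytes also carry. They were Cd36, a scavenger receptor (126 and 64 UMIs, -3.44), Ifit3 and Cd83 as above, the sodium-calcium exchanger Slc8a1 (-2.44), the lipid carrier Apoe (111 and 122 UMIs, -2.32), the lipid droplet protein Plin2 (-2.29), Cd74 and Ifit1 as above, the transcription factor Hivep2 (-1.995) and the G protein subunit Gngt2 (-1.75). A single cell held 47.6% of the control Cd36 UMIs and 36.9% of those of Apoe. Of the 5 control cells over 10000 UMIs, 4 had 8 to 60 UMIs of Cd36 and 4 had 8 to 68 of Cd74, and Pecam1 reached 16. Without cells that held Pecam1 or Cldn5 UMIs, Cd36 turned to 0.37 and 16 genes rather than 93 were at least 2-fold lower.

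To see which ratios held, 3 sets of cells were left out in turn. They were cells over 10000 UMIs, cells with a Csf1r, Ccr2 or Ly6c2 UMI and cells rich in Camp, Ngp and Ltf. Leaving out the second set kept 29 control and 141 Dnmt1iECKO cells. Only 16 of the 61 higher and 17 of the 93 lower genes had the minimum count in them. With the minimum count each time, 4 of the 61 genes stayed at least 2-fold higher and 3 of the 93 at least 2-fold lower. The others include genes that only lacked the count. Gdpd3 had no control UMI left in the first 2 of these subsets. Besides Gdpd3, Asprv1 and Bcl2a1b, named above, these were Gsk3b, Itgax, Nktr and Mbnl1, which are named here after their values were seen. Gsk3b, a kinase of many signaling pathways, was at 162 and 410 CPM (1.34, 0.91 to 1.80) and between 1.44 and 1.81 in the 3 subsets. Itgax, which encodes CD11c, was at 67.0 and 136 CPM (1.02, 0.34 to 1.78), and Nktr, a cyclophilin-related gene, at 363 and 786 CPM (1.11, 0.82 to 1.42). Mbnl1, a splicing factor, was lower at 314 and 121 CPM (-1.37, -1.74 to -0.99).

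After thinning, the genes whose variance over mean among neutrophils was high in both libraries, ranked by the smaller of the 2 values, were S100a9, Gm42418, S100a8, Fth1, Cxcl2, Retnlg, mt-Co1, mt-Atp6, Il1b and Nfkbia. The variance over mean of S100a9 was 13.3 in control and 16.3 in Dnmt1iECKO cells, against medians of 1.01 and 1.12 over the genes compared. Retnlg varied more in Dnmt1iECKO (15.0) than in control cells (6.97). Cxcl2 had values of 7.51 and 8.85, and the ferritin gene Fth1 of 8.57 and 7.83. Ranked in Dnmt1iECKO cells alone, Ngp (54.7), Camp (44.1) and Ltf (17.3) came among the first 4, along with Mgp (18.6). Across thinned cells the sum of S100a8 and S100a9 went with that of the specific granule genes (Spearman's rho 0.46 over 51 control and 0.48 over 269 Dnmt1iECKO cells) and with Retnlg (0.43 and 0.50). For the type I interferon and specific granule sums rho was -0.06 and 0.02. Cells of 1 library share its depth and free RNA, and these values are descriptions.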

How the data were processed

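Each deposited matrix holds raw UMI counts for every gene in every called cell, which the authors obtained with Cell Ranger 9.0.1 (mm10) and did not normalize, per the file headers and labels. The labels name the GEM-X v4 kit. Intronic reads, strand and multi-mapped reads were handled by that software with settings not given in the sources used here. The study's Seurat and DoubletFinder steps are not in these counts and were not repeated.

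From these counts, cells with under 500 genes or over 10% mitochondrial UMIs were removed, and neutrophils were taken by the marker rule of the text. UMIs were summed per library and given as CPM. Intervals are exact: Poisson for a level, Clopper-Pearson for a share, and conditional on the summed count for a ratio. Genes with at least 100 UMIs over both libraries were compared, and 2-fold is the limit for a call. With 1 library per group no test was made. Thinning drew 1000 UMIs from each cell. Fixed lists held 428 entries, of which 423 were found. The members and lists were chosen with earlier results of these data known.

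Genes named are those of the rule, Dnmt1, up to 4 genes per list by UMIs, list genes at least 2-fold different whose interval excludes 0, the 10 highest and 10 lowest ratios (a UMI in at least 10% of the cells of the higher library, same direction in the mean of CPM over cells, without genes of the rule, ribosomal and mitochondrial genes), the 10 most variable genes and the 10 highest over other cells. Monocytes had UMIs of at least 3 of 8 genes such as Ccr2 and Fn1, under 20 UMIs of S100a8 and S100a9 and the exclusions of the rule. C1q-positive macrophages had at least 10 C1q UMIs and Csf1r. A few genes that this rule names are not reported here.

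Positions come from GENCODE vM21 on GRCm38, the build of the counts, and promoters from RefSeq. Alternatives were other minima of genes (200, 1000) and UMIs (20, 300), a mitochondrial limit of 5%, S100 sums of 10 and 50, at least 3 second markers, no C1q UMI, Scrublet doublets removed (scanpy 1.11.5, 0.4% per 1000 cells), cells with platelet, monocyte or endothelial UMIs removed, size factors, CPM without S100a8 and S100a9, the mean of CPM over cells, and thinned cells. Leaving out cells over 10000 UMIs, granule-rich cells and the control cell richest in interferon genes, and keeping cells that the Cd3e, Cd79a, Cdh5 and C1q criteria remove, were chosen after seeing the data. Software was scipy 1.17.1, numpy 2.4.6, matplotlib 3.10.9 and pandas 2.3.3 under Python 3.11.15. In counts simulated from the neutrophils of both libraries, 146 of 200 changed genes had the minimum count, all with the right sign. Of their intervals 95.2% held the true ratio. These counts were drawn with Poisson error alone, which the intervals also assume, so the result checks the calculation only. It does not cover UMIs gathered in a few cells.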

Additional observations from a re-analysis of the deposited data

How the results depend on the processing

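The share ratio stayed between 2.27 and 2.66 on the log2 scale under the other limits for cells and doublets and was 0.70 among cells with a Ptprc UMI and 1.93 when cells with Cd3e, Cd79a, Cdh5 or C1q UMIs were kept. Genes at least 2-fold higher numbered 104 with an S100 sum of 10, 23 without monocyte gene UMIs, 40 without cells over 10000 UMIs, 16 after thinning, 579 with at least 20 UMIs and 18 with 300. Genes at least 2-fold lower numbered 7 without monocyte gene UMIs, 16 without Pecam1 or Cldn5 UMIs, 20 without cells over 10000 UMIs, 54 without the control cell richest in interferon genes, 55 by the mean of CPM over cells, 2 after thinning, 497 with at least 20 UMIs and 22 with 300. After thinning 556 genes kept the minimum count. List medians moved without monocyte gene UMIs for specific granule genes (-0.14), type I interferon (0.036), IFN gamma (0.23) and glycolysis (0.012). They also moved for specific granule genes without cells over 10000 UMIs (-0.10), for IFN gamma after thinning (0.10) and for glycolysis by the mean of CPM over cells (-0.0016). Keeping the cells that the Cd3e, Cd79a, Cdh5 and C1q criteria remove, chosen after seeing the data, gave 291 genes higher and 838 lower of 4881 compared, and list medians of 1.21 (late-stage), 0.90 (receptors), 0.37 (adhesion), -0.11 (type I interferon), -0.72 (IFN gamma), 0.24 (NF-kB) and 0.49 (transcription factors). Of 30 genes followed, 13 took both signs: Isg15, whose interval held 0, and 12 others, namely with those cells kept Pde4d (-0.073), Il1a (-0.041), Dach1 (-0.55) and Apoe (0.17), without monocyte gene UMIs Mgp (-1.03), Cd177 (-0.47), Cd74 (0.89), Ifit1 (3.08), Hivep2 (0.045), Gngt2 (0.50) and Lcn2 (-0.50), without Pecam1 or Cldn5 UMIs Mgp (-0.61), Cd36 (0.37) and Cd74 (0.85), without cells over 10000 UMIs Mgp (-0.16), Cd74 (0.40) and Lcn2 (-0.18), without any C1q UMI Mgp (-0.010), with an S100 sum of 10 Cd74 (0.032), after thinning Cd177 (-0.28), and without granule-rich cells Lcn2 (-0.067). Beyond fewer cells, the cause was not tested. Size factors shifted every ratio by 0.041. No paired analysis was possible because each group is 1 library.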

Other observations

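Signals that draw neutrophils were read in the 5697 control and 2689 Dnmt1iECKO cells with a Cdh5 UMI, a class that includes cells holding free endothelial RNA. Cxcl1, which attracts neutrophils through Cxcr2, was at 130 CPM in the control and 153 CPM in Dnmt1iECKO cells, a log2 ratio of 0.24, and Cxcl2 at 147 and 295 CPM (1.01). Other signals were scarce: Cxcl3 was lower, at 3.97 and 2.53 CPM (-0.65, -0.97 to -0.34), and Cxcl5 (-0.39, -1.63 to 0.73) and Csf3, the gene of G-CSF (-0.10, -0.68 to 0.45), had fewer than 1 CPM in both libraries. P-selectin (Selp), on which neutrophils roll, was at 93.4 and 282 CPM (1.59) and E-selectin (Sele) at 29.2 and 61.8 CPM (1.08), whereas Icam1 was at 528 and 511 CPM (-0.05). Selp was seen in 6.48% and 11.2% of these cells and Sele in 2.84% and 6.66%. The paper reports larger proportions of venous and post-capillary venule endothelium in Dnmt1iECKO. The mix of subtypes and the level per cell cannot be told apart in these sums. Neutrophil RNA was itself higher in these cells in the Dnmt1iECKO library, with S100a9 at 40.7 and 96.2 CPM, and its part in the Cxcl2 value was not tested.

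In the other direction, Cxcl1 was lower in the Dnmt1iECKO library in monocytes (893 and 497 CPM) and in C1q-positive macrophages (954 and 570 CPM). Cxcl2 was lower in those macrophages (4484 and 3322 CPM) and slightly lower in monocytes (2400 and 2195 CPM). Cxcl3 was lower in monocytes (63.5 and 15.9 CPM) and macrophages (21.5 and 10.5 CPM), and Csf3 was lower in monocytes (9.47 and 5.91 CPM). Higher in Dnmt1iECKO were Csf3 in macrophages (3 and 34 UMIs) and Cxcl5 in monocytes (0 and 172 UMIs). Those Cxcl5 UMIs lay in 1.33% of the Dnmt1iECKO monocytes.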
